A study of Mus musculus with 12 samples.

Results

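Axonal tubulins and microtubule-associated proteins were followed here through 10 genes, taken by mouse symbol and matched to their Ensembl IDs among the 49548 genes of the count tables. They were the alpha tubulins Tuba1a and Tuba4a, the beta tubulins Tubb3 and Tubb4a, the microtubule-associated proteins Mapt, Map2, Map1a and Map1b, and the microtubule regulators Stmn3 and Dpysl2. All 10 were found and all 10 passed the filter on low counts, with at least 4829 counts in every library.

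RNA was sequenced from lumbar spinal cord of untreated mice at 30 days of age, with 1 library per mouse, to ask how the transcriptome of a Charcot-Marie-Tooth type 2A model differs from that of WT mice. The 8 MFN2 mice were hemizygous MitoCharc1 animals on a B6;D2 background, with the transgene Tg(Eno2-MFN2*R94Q)L51Ugfm/J, in which a rat Eno2 promoter drives human R94Q MFN2, mainly in neurons, beside the intact mouse Mfn2 alleles. The 4 WT mice are labelled C57BL/6, and the sex of the animals was not given. Since the study's methods also speak of littermates, whether the groups differ in strain background is unsettled, and in every comparison with WT such a difference and the transgene cannot be told apart. Total counts per library ranged from 19359454 to 26738930 in MFN2 mice and from 19453238 to 23564568 in WT mice, and the 10 genes together took between 1.21% (library 43) and 1.62% (library 72) of them. Libraries are named by their numbers, which fell into 2 runs: 41 to 47 held 3 MFN2 mice (41 to 43) and all WT mice (44 to 47), and 72 to 76 held 5 MFN2 mice. The labels do not say what the numbers stand for, and in the second run the number run and the genotype cannot be told apart.

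Microtubules are hollow polymers of alpha and beta tubulin dimers that give axons their shape and serve as tracks for the transport of mitochondria and other cargo. Each tubulin is made by several genes, the isotypes, which differ mostly in the acidic tail at the carboxyl end, where motors and associated proteins bind and where enzymes remove or add back a terminal tyrosine or add glutamates. Tau (Mapt) and MAP1B are best known from axons, MAP2 from dendrites and cell bodies, while stathmins bind free tubulin dimers and CRMP2 (Dpysl2) carries dimers to growing axons.

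The coding ends of 3 tubulin genes are shown because they encode the tails that tell the isotypes apart. Each run holds the last 60 coding bases, read 5′ to 3′ on the coding strand from GENCODE M21 transcripts on GRCm38, with the last sense codon and the stop codon in capitals. The Tuba4a run lies at chr1:75215622-75215681 on the minus strand. The Tubb3 run lies at chr8:123421623-123421682 on the plus strand and the Tubb4a run at chr17:57080690-57080749 on the minus strand.
Tuba4a: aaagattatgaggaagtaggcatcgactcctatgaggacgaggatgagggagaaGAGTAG
Tubb3: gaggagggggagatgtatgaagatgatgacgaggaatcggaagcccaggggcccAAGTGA
Tubb4a: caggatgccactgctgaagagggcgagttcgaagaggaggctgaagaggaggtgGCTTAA

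The Tuba4a run ends in GAG before the stop and so encodes no terminal tyrosine, while Tubb3 ends in AAG and Tubb4a in GCT. Over the whole coding sequence, Tuba1a was 98.3% identical to Tuba1b, with a longest shared stretch of 281 bases against reads of 75 bases. Tuba1a and Tuba4a were 84.7% identical with a longest shared stretch of 29 bases, and Tubb3 and Tubb4a were 82.4% identical with a longest shared stretch of 32 bases. Of all 75-base windows in the longest transcript, 70.4% of those of Tuba1a also occurred in the transcripts of 14 other genes, so that its split from Tuba1b and Tuba1c is uncertain. For Tuba4a, 47.2% of windows occurred in Stk16, a kinase gene on the opposite strand with which it shares 1379 exon bases, and for Map1a, 1.68% occurred in Ppip5k1. None of the windows of the other 7 genes occurred elsewhere. Whether the counting used strand is not stated, so reads of Tuba4a and Stk16 may have been mixed. Over the 12 libraries, Stk16 held 7098 counts against 73057 for Tuba4a.

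Before the results, the tissue label was set against marker genes. In 11 libraries, 9 caudal Hox genes that mark the lower cord summed to between 253 and 314 CPM (counts scaled for library size, by TMM), while library 43 held 43.5 CPM. The same library held 4736 CPM of 10 forebrain genes, led by Camk2a, a kinase of excitatory forebrain synapses, against 111 to 209 CPM in the others, and all 10 were highest there. Its 6 motor neuron markers, led by Prph, a neuronal intermediate filament, were all lowest, at 35.5 CPM against 154 to 370 CPM. Its 6 oligodendrocyte markers were also all lowest, at 8133 CPM against 21104 to 33950 CPM. Library 43 thus goes against its label of lumbar cord, and each comparison between groups that includes it was also run without it. The levels and shares over all libraries given below include it. Mouse Mfn2 stood at 206 ± 12.8 CPM in MFN2 mice (SD, n = 8) and 213 ± 15.1 CPM in WT mice (SD, n = 4). The human transgene was not analysed here, so these counts do not check the genotype labels. The study itself reports that human MFN2 reads differed significantly between MFN2 and WT mice in its RNA-seq data, and that mouse Mfn2 reads did not.

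Levels of different genes were compared as RPKM (counts scaled for library size and per kilobase of exon, over the union of annotated exons, all 12 libraries). A heading in the study's methods speaks of 3′-mRNA sequencing, although the kit named there is for total RNA. If reads lay mainly near the 3′ end, dividing by length would set long genes too low. Coverage along the genes was not examined. Tubb4a, the beta tubulin abundant in oligodendrocytes and neurons, stood highest at 621 ± 123 RPKM (SD, n = 12). In MFN2 mice its level was 600 ± 118 RPKM (SD, n = 8), and 637 ± 58.7 RPKM without library 43 (SD, n = 7). Stmn3, a stathmin of neurons, followed at 367 ± 35.6 RPKM, and then Map1b at 341 ± 39.6, Map1a at 315 ± 32.6 and Tuba1a at 258 ± 28.0 RPKM. Within these, neighbours from Stmn3 to Tuba1a overlapped in their mean ± SD, and Stmn3 was above Map1b in 6 of 12 libraries. Tubb3, the beta tubulin used as a marker of neurons, stood at 191 ± 20.9 RPKM beside Dpysl2 at 184 ± 12.5 RPKM, and this pair did not differ beyond its spread either. Map2 at 103 ± 10.6, Tuba4a at 72.5 ± 4.47 and Mapt at 40.7 ± 5.36 RPKM closed the order, each apart from its neighbours. The order depended on which exons were taken as the gene's length: with the longest annotated transcript, Map2 rose to 270 ± 27.8 RPKM and Mapt to 58.4 ± 7.69 RPKM, and Mapt still stood lowest. With that length Map1b stood at 457 ± 53.1 RPKM, above Stmn3 in all 12 libraries and so in the place after Tubb4a, which stood above it in all 12 libraries, although their mean ± SD overlapped.

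**Figure D1:**
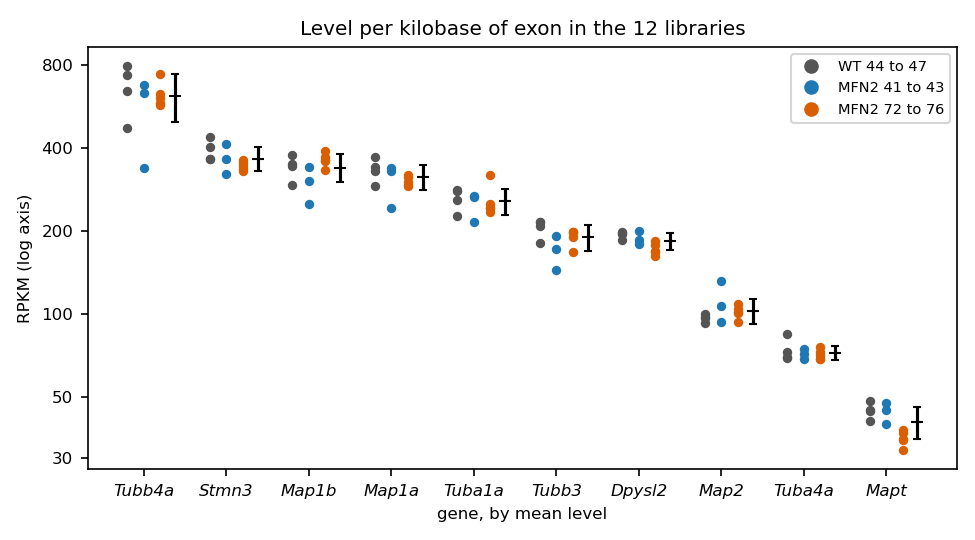
Level of each gene in RPKM (log axis) in the 12 libraries, in order of the mean. Points are single libraries by group and the black mark with bars is the mean ± SD over all 12, so that Tubb4a at 621 RPKM stands above and Mapt at 40.7 RPKM below the other genes.

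Across all mice, none of the 10 genes was called as different between MFN2 and WT. Of 15942 genes tested with edgeR's quasi-likelihood test, 0 passed a Benjamini-Hochberg false discovery rate (FDR) of 0.05 (0% of genes), and the lowest FDR was 0.111. Without adjustment, 2386 genes (15%) and 0 of the 10 had a p under 0.05, while DESeq2 called 200 genes and none of the 10. The median log2 fold change of the 10 genes was -0.13, with 9 of 10 below 0, against 0.0038 over all genes tested. The values ran from -0.21 for Mapt (SE 0.10, FDR 0.346) to 0.12 for Map2 (SE 0.085, FDR 0.489), which was 0.068 without library 43. Without library 43, edgeR called 19 genes (0.12%) and none of the 10, and their median was -0.076. In that fit 3351 genes (21.2%) had an unadjusted p under 0.05, among them 1 of the 10, Mapt (-0.21, edgeR p 0.0472, FDR 0.231).

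The number runs were then set against WT separately. In MFN2 libraries 41 to 43 against WT, edgeR called 1 of 15200 genes (0.00658%), the pseudogene Rpsa-ps10, and none of the 10, whose median was -0.069, or -0.0047 without library 43. In MFN2 libraries 72 to 76 against the same WT libraries, 3746 of 15743 genes (23.8%) passed an FDR of 0.05, of which 1746 (11.1%) were higher and 2000 (12.7%) lower. Of the 10 genes, 3 fell (Mapt, Stmn3 and Dpysl2) and 0 rose, against 12.7% of all genes called lower and 11.1% called higher. Their median log2 fold change was -0.097, against -0.00066 over all genes tested. The same 3 genes did not overlap between the groups, as did 19.8% of all genes tested. Between MFN2 libraries 72 to 76 and 41 to 43, mice of 1 genotype, 342 of 15633 genes (2.19%) passed and none of the 10. Without library 43, 2375 of 15509 genes (15.3%) passed, and 1 of the 10, Mapt (edgeR FDR 0.00478). These comparisons share libraries, so their values are given side by side and are not independent.

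**Figure D2:**
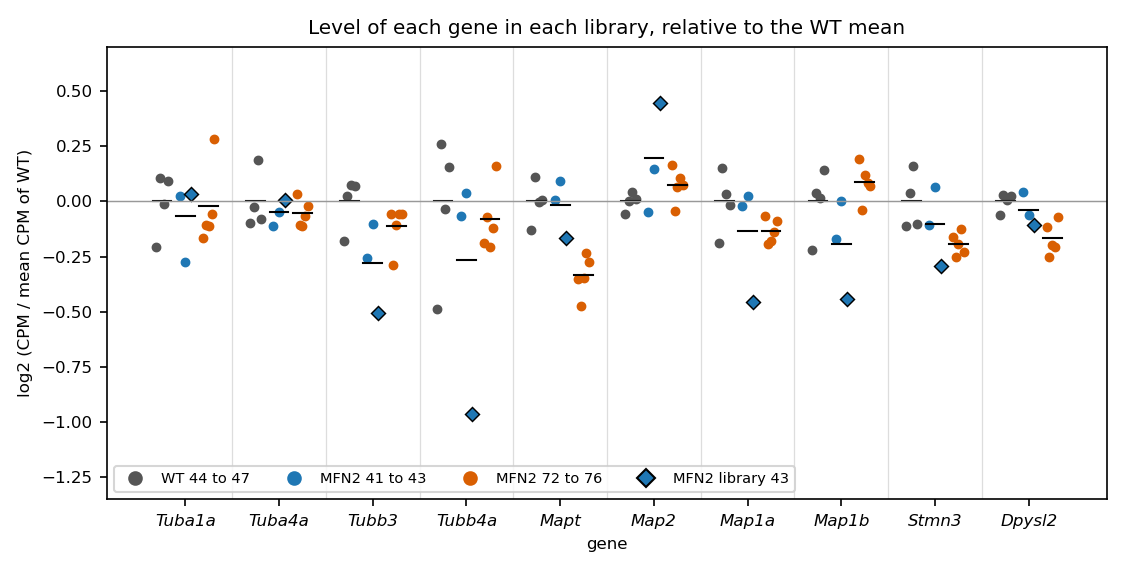
Level of each gene in each library as log2 of CPM over the mean CPM of the WT libraries, with short black lines at group means and library 43 as a diamond. Mapt, Stmn3 and Dpysl2 of libraries 72 to 76 (orange) lie below every WT library (grey), while library 43 stands far below the others for Tubb4a, at 759 CPM, and above them for Map2, at 2171 CPM.

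Mapt (ENSMUSG00000018411) occupies positions 104231390 to 104332090 of chromosome 11 (plus strand), and encodes tau, which binds along axonal microtubules. Its level was 308, 364, 336 and 339 CPM in WT libraries 44 to 47. MFN2 libraries 41 to 43 gave 339, 359 and 300.1 CPM, and libraries 72 to 76 gave 264, 242, 265, 286 and 278 CPM. All 5 libraries of the second run were below every WT library, whereas those of the first run lay among the WT values except library 43, which was slightly lower. Mapt fell by 20.8% in libraries 72 to 76 against WT (log2 fold change -0.34, SE 0.059, edgeR FDR 0.00234). In libraries 41 to 43 against WT its log2 fold change was -0.0022 (SE 0.094, FDR 0.994), and 0.061 without library 43 (FDR 0.956). Between the MFN2 runs it was -0.34 (SE 0.079, edgeR FDR 0.0631), with no overlap of the groups, as for 18.4% of genes tested. Without library 43 the same difference was -0.39 (SE 0.068, edgeR FDR 0.00478), in a fit that called 2375 genes (15.3%). With the number run as a covariate, the MFN2 effect rests on libraries 41 to 43 against WT, since libraries 72 to 76 held no WT mice. In that fit the MFN2 effect on Mapt was -0.017 (edgeR FDR 0.933). The same covariate moved Map1b from -0.012 to -0.19 (edgeR FDR 0.420), Tubb3 from -0.17 to -0.28 (FDR 0.275) and Tubb4a from -0.15 to -0.26 (FDR 0.570). With the covariate and without library 43 these were -0.082 for Map1b, -0.18 for Tubb3, -0.012 for Tubb4a and 0.051 for Mapt, while without library 43 and without the covariate Tubb4a was at -0.059 and Map1b at 0.040.

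Map2 (ENSMUSG00000015222), located at 66175273 to 66442583 of chromosome 1 (plus strand), encodes the dendritic relative of tau. It gave 1533, 1597, 1641 and 1609 CPM in WT libraries 44 to 47. The MFN2 mice gave 1542, 1765 and 2171 CPM in libraries 41 to 43 and 1787, 1545, 1667, 1719 and 1682 CPM in libraries 72 to 76. Thus 6 of 8 MFN2 libraries lay above every WT library, and library 43 stood highest. The fold changes did not pass with TMM scaling: 0.07 on the log2 scale (SE 0.051, edgeR FDR 0.325) in libraries 72 to 76 against WT, and 0.21 (SE 0.13, FDR 0.629) in libraries 41 to 43 against WT, which became 0.062 without library 43. With scaling by totals alone, Map2 passed in libraries 72 to 76 against WT (0.14, edgeR FDR 0.0459).

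Map1a (ENSMUSG00000027254), located at 121289600 to 121310832 of chromosome 2 (plus strand), and Map1b (ENSMUSG00000052727), located at 99421446 to 99516540 of chromosome 13 (minus strand), encode large proteins that crosslink microtubules, MAP1B mainly while axons grow and MAP1A mainly in mature neurons. Map1a gave 3567, 4519, 4164 and 4017 CPM in WT libraries 44 to 47, 4013, 4138 and 2960.2 CPM in MFN2 libraries 41 to 43, and 3888, 3551, 3593, 3688 and 3818 CPM in libraries 72 to 76. Map1b gave 4663, 5579, 5479 and 5984 CPM in WT, 4819, 5434 and 3995 CPM in libraries 41 to 43, and 6199, 5275, 5891, 5743 and 5688 CPM in libraries 72 to 76. Both were lowest in library 43, and for both the groups overlapped. In libraries 72 to 76 against WT the log2 fold change was -0.14 for Map1a (SE 0.066, edgeR FDR 0.150) and 0.084 for Map1b (SE 0.073, FDR 0.436). Map1b was at 0.018 in that comparison without WT library 44, and at 0.14 without WT library 47. Between the MFN2 runs Map1b was 0.26 higher in libraries 72 to 76 (SE 0.10, edgeR FDR 0.174), and 0.16 higher without library 43 (FDR 0.193). Map1a went from -0.017 (SE 0.11, edgeR FDR 0.936) to -0.15 without library 43 (SE 0.062, FDR 0.137), where the groups did not overlap, as for 34.6% of genes tested.

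Stmn3 (ENSMUSG00000027581), located at 181306459 to 181314500 of chromosome 2 (minus strand), encodes a stathmin that destabilises microtubules. It gave 415, 461, 501 and 417 CPM in WT libraries 44 to 47. Libraries 41 to 43 gave 416, 469 and 366 CPM, and libraries 72 to 76 gave 401, 377, 392, 411 and 383 CPM. The second run lay below every WT library, by a narrow margin between 411 and 415 CPM. Stmn3 fell by 12.6% in libraries 72 to 76 against WT (log2 fold change -0.19, SE 0.059, edgeR FDR 0.0316), and against libraries 41 to 43 its log2 fold change was -0.11 (SE 0.082, FDR 0.441). Without library 43 that difference between the MFN2 runs was -0.18 (SE 0.064, edgeR FDR 0.0767), with no overlap of the groups, as for 34.6% of genes tested. Without library 42 the difference was -0.023. In libraries 41 to 43 against WT the log2 fold change of Stmn3 was -0.089, and -0.0082 without library 43. The call was lost when libraries were scaled by their totals alone (edgeR FDR 0.115) and when any of WT libraries 45 and 46 or MFN2 libraries 72 to 76 was left out, with an FDR of up to 0.1002.

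Dpysl2 (ENSMUSG00000022048), located at 66802864 to 66868688 of chromosome 14 (minus strand), encodes CRMP2. It gave 839.9, 896, 882 and 892 CPM in WT libraries 44 to 47. Libraries 41 to 43 gave 905, 841 and 815 CPM, and libraries 72 to 76 gave 809, 736, 765, 761 and 835 CPM. Here too the second run lay below every WT library, with 835 CPM in library 76 close to 839.9 CPM in WT library 44. Dpysl2 fell by 11.1% in libraries 72 to 76 against WT (log2 fold change -0.17, SE 0.049, edgeR FDR 0.0270). Against libraries 41 to 43 its log2 fold change was -0.15 (SE 0.070, edgeR FDR 0.227). Without library 43 that difference between the MFN2 runs was -0.17 (SE 0.065, edgeR FDR 0.101), with no overlap of the groups, as for 34.6% of genes tested. Without library 41 the difference was -0.092. In libraries 41 to 43 against WT the log2 fold change of Dpysl2 was -0.025 (edgeR FDR 0.914), and 0.00092 without library 43. In libraries 72 to 76 against WT, the Dpysl2 call was lost with scaling by totals alone (edgeR FDR 0.115). It was also lost when any of WT libraries 45 to 47 or MFN2 libraries 73 to 75 was left out. The edgeR FDR was then up to 0.0803. With 1 library left out the log2 fold change ran from -0.19 to -0.14, and its smallest fall under any alternative was -0.099. Library 73, the lowest of the second run for Mapt, Stmn3 and Dpysl2, also held 233 CPM of 4 muscle genes. The rest of that run held 13.2 to 35.7 CPM of them. Its 3 blood genes summed to 189 CPM, against 85.0 to 126 CPM in the rest of that run. Without library 73, Mapt still passed against WT (-0.30, edgeR FDR 0.0058), and Dpysl2 was at -0.14 (FDR 0.0679).

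**Figure D3:**
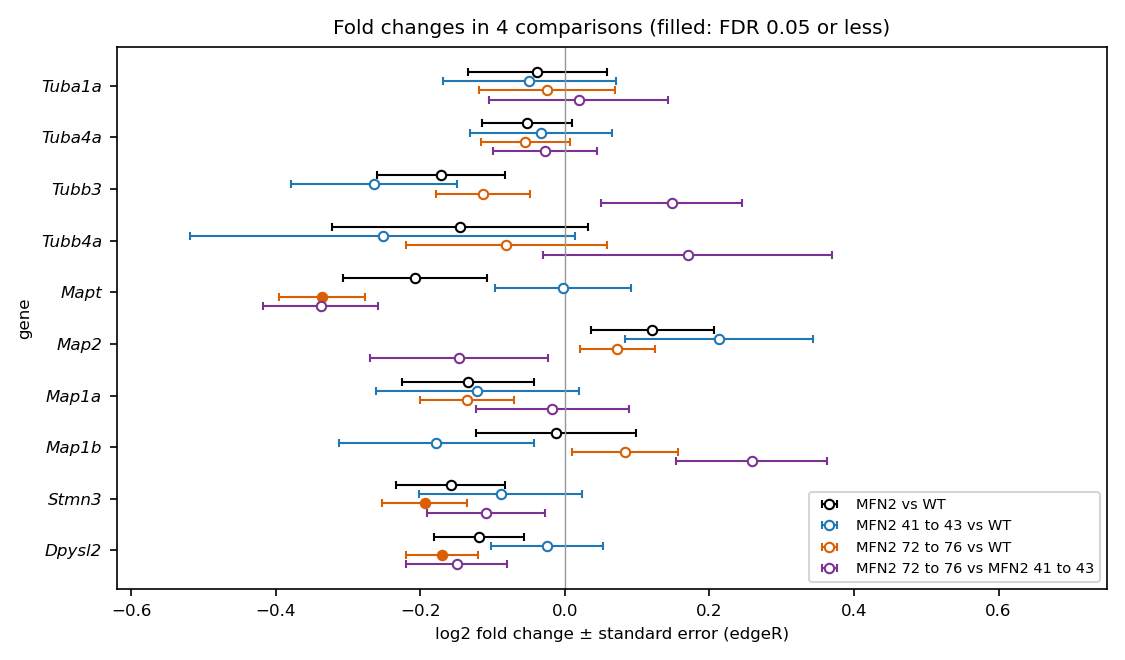
Log2 fold change ± standard error of the 10 genes in 4 comparisons, with filled points where the edgeR FDR was 0.05 or less. Filled points are found only for Mapt (-0.34), Stmn3 (-0.19) and Dpysl2 (-0.17) in libraries 72 to 76 against WT.

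Tubb3 (ENSMUSG00000062380) occupies positions 123411424 to 123422015 of chromosome 8 (plus strand). It gave 340.1, 392, 405 and 404 CPM in WT libraries 44 to 47, 323, 358 and 271 CPM in libraries 41 to 43, and 370.0, 315, 358, 370.2 and 369.9 CPM in libraries 72 to 76. The second run lay within the WT range except library 73. Its log2 fold change was -0.11 (SE 0.065, edgeR FDR 0.228) in libraries 72 to 76 and -0.26 (SE 0.12, FDR 0.622) in libraries 41 to 43, each against WT, the latter -0.17 without library 43. Without WT library 44, the lowest of the WT mice for Tubb3 and for Map1a, both passed in libraries 72 to 76 against WT. Tubb3 was then at -0.17 (edgeR FDR 0.0454) and Map1a at -0.19 (FDR 0.0208). In the same comparison Tubb3 was at -0.064 without library 73 and Map1a at -0.081 without WT library 45, and neither passed.

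Tubb4a (ENSMUSG00000062591), located at 57080066 to 57087782 of chromosome 17 (minus strand), varied most of the 10 in WT mice. It gave 1054, 1771, 1442 and 1645 CPM in WT, 1413, 1519.8 and 759 CPM in libraries 41 to 43, and 1298, 1407, 1282, 1358 and 1654 CPM in libraries 72 to 76. WT alone spanned 1054 to 1771 CPM, a range that held 7 of the 8 MFN2 libraries. The coefficient of variation was 21.2% in WT and 19.7% in MFN2 mice, against 2.86% for Map2 and 2.93% for Dpysl2 in WT, and was 9.22% in MFN2 mice without library 43, where Mapt (14.7%) and Tuba1a (12.9%) varied more. Library 43, with the lowest Tubb4a, also held the lowest sum of oligodendrocyte markers (8133 CPM), and library 76, with 1654 CPM of Tubb4a, held the highest (33950 CPM). Not every library followed this order. Library 42 held 1519.8 CPM of Tubb4a and 21104 CPM of the markers, library 41 held 1413 and 32731 CPM, and WT library 44 held 1054 and 23478 CPM. The part of oligodendrocyte RNA in these differences was not tested. In bulk tissue, fewer cells of a type and less RNA per cell cannot be told apart.

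Tuba1a (ENSMUSG00000072235), located at 98949837 to 98953703 of chromosome 15 (minus strand), gave 409.9, 508, 469 and 503 CPM in WT, 481, 390.4 and 484 CPM in libraries 41 to 43, and 422, 439, 438, 454 and 575 CPM in libraries 72 to 76. Tuba4a (ENSMUSG00000026202), located at 75214228 to 75219865 of chromosome 1 (minus strand), gave 256, 270.1, 313 and 259.6 CPM in WT, 254, 266 and 276 CPM in libraries 41 to 43, and 281, 255, 254, 263 and 271 CPM in libraries 72 to 76. Both overlapped between all groups. In libraries 72 to 76 against WT their log2 fold changes were -0.025 (SE 0.094, edgeR FDR 0.879) and -0.055 (SE 0.061, FDR 0.551).

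Shares within each tubulin family were computed per exon base, which removes the scaling between libraries. They carry the same limit on gene length as the RPKM. Of alpha tubulin, Tuba1a made up 65.4% ± 2.78 (SD, n = 12), Tuba4a 18.5% ± 1.40 and Tuba1b 15.2% ± 1.82. All of these carry the uncertainty of shared reads, for Tuba4a those shared with Stk16. Tuba8 held 0.720% and Tuba1c 0.120%, while Tuba3a, Tuba3b and Tubal3 were at or near 0. Of beta tubulin, Tubb4a made up 49.0% ± 5.47, Tubb3 15.2% ± 1.04, Tubb4b 13.5%, Tubb2a 10.8%, Tubb5 8.71% and Tubb2b 2.62%, with Tubb6 and Tubb1 below these. The Tubb4a share ran from 44.7% in WT library 44 to 54.3% in WT library 45, apart from library 43, where Tubb4a took 34.4% and Tubb2a 19.2%.

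**Figure D4:**
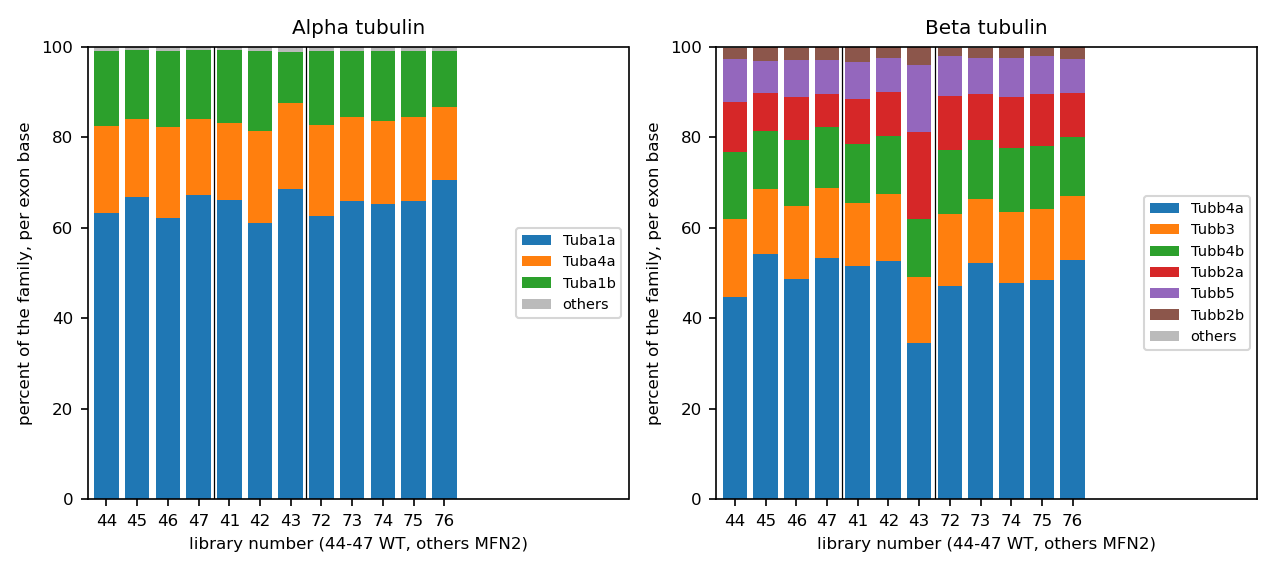
Share of each isotype in alpha and beta tubulin RNA in percent, per exon base, in each library, with WT libraries 44 to 47 first, then MFN2 libraries 41 to 43 and 72 to 76. Tuba1a takes the greater part of alpha tubulin in every library, and the Tubb4a share of 34.4% in library 43 is the lowest of the 12.

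The 4 shares of the tubulins studied were compared between genotypes with an exact permutation test (two-sided, 495 splits, smallest possible p 0.00202). The Tubb3 share was 14.9% in MFN2 and 15.8% in WT mice, a difference of -0.94 percentage points (exact permutation p = 0.143, 0.574 after Benjamini-Hochberg adjustment over the 4 shares). Tubb4a took 48.4% against 50.2%, a difference of -1.81 points (exact permutation p = 0.667), which was 0.18 points without library 43. Tuba1a differed by 0.90 points (exact permutation p = 0.618) and Tuba4a by 0.17 points (p = 0.869, permutation), and without library 43 by 0.50 and 0.099 points. None of these differences passed the test.

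Of the remaining alpha and beta tubulin genes, 2 passed with all libraries, both in libraries 72 to 76 against WT. In that comparison 23.8% of all genes tested passed, with 11.1% called higher and 12.7% called lower. Tuba1b fell in libraries 72 to 76 against WT, from 121 ± 8.04 CPM in WT (SD, n = 4) to 106 ± 5.09 CPM (SD, n = 5; log2 fold change -0.19, SE 0.056, edgeR FDR 0.0298). Tubb2a rose from 187 ± 17.2 to 221 ± 16.5 CPM (0.24, SE 0.071, edgeR FDR 0.0264). Neither passed across all mice, where Tuba1b was at -0.18 (edgeR FDR 0.358) and Tubb2a at 0.28 (FDR 0.294). Of the 12 alpha and beta tubulin genes tested, the other 10 did not pass in libraries 72 to 76 against WT. Tubb6, a beta tubulin of low level here, passed between the MFN2 runs when library 43 was left out, with 2.06 and 1.60 CPM in libraries 41 and 42 and 2.41 to 3.91 CPM in libraries 72 to 76 (log2 fold change 0.80, SE 0.24, edgeR FDR 0.0463). In that fit 7.34% of all genes tested were called higher. The WT mice held 2.35 to 3.97 CPM of Tubb6. Tubb2a shares a coding stretch of 551 bases with Tubb2b, so that their split is uncertain as well. Of the gamma tubulins, which nucleate microtubules, in libraries 72 to 76 against WT Tubg1 rose by 0.23 (edgeR FDR 0.0266) and Tubg2 fell by 0.24 (FDR 0.0499) on the log2 scale.

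The wider microtubule machinery was counted over 108 genes, the 10 among them, of which 104 were tested. Across all mice, 0 passed an FDR of 0.05 with edgeR, and 13 had an unadjusted p under 0.05 (7 higher and 6 lower, against 7.4% and 7.57% of all genes). Without library 43 there were again 0 calls, and 25 had an unadjusted p under 0.05 (16 higher and 9 lower, against 10.7% and 10.4% of all genes). In libraries 72 to 76 against WT, 16 of the 104 rose and 19 fell, against 11.1% and 12.7% of all genes tested, with a median log2 fold change of -0.024. Of 18 structural microtubule-associated proteins, 2 rose and 5 fell. Of 16 proteins of microtubule ends, 6 rose, among them Nav1, Nav2 and Nav3 at 0.28 each, and 1 fell, Clip2 at -0.27. Of 19 genes of tubulin modification, 1 rose and 5 fell, and of 7 genes of tubulin folding, 2 rose and 2 fell. Several of these counts lie near the 11.1% of all genes called higher and the 12.7% called lower, and no list was tested against them.

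The greatest rises were in Dpysl4, a CRMP, with 17.2 ± 4.20 CPM in WT and 25.7 ± 2.05 CPM in libraries 72 to 76 (log2 fold change 0.57, SE 0.13, edgeR FDR 0.0108), and in Dcx, which encodes doublecortin of young neurons, from 13.1 ± 1.68 to 19.5 ± 0.246 CPM (0.57, SE 0.082, FDR 0.000806). Dyrk2, a kinase with microtubule-associated proteins among its substrates, rose by 0.36, and Tbca and Tbce, which help fold tubulin, by 0.28 each. Among the falls, Map4, the microtubule-associated protein found in most tissues, went from 649 ± 43.5 to 469 ± 33.0 CPM (-0.47, SE 0.062, edgeR FDR 0.000524). Vash1, which removes the terminal tyrosine of alpha tubulin, was at -0.47 (SE 0.095, edgeR FDR 0.00513), and Ttl, which adds it back, at -0.37 (SE 0.076, FDR 0.00542). Tpgs1, a subunit of a tubulin polyglutamylase, fell by 0.44 and Tppp3 by 0.52 on the log2 scale. Dcx, Dyrk2 and Dpysl4 were higher in library 43 than in any other, at 54.2, 32.3 and 38.9 CPM.

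Between the MFN2 runs, Map1s, a relative of Map1a, was the 1 gene of the 104 that passed, with 47.3 CPM in libraries 41 to 43 and 34.9 CPM in libraries 72 to 76 (log2 fold change -0.46, SE 0.082, edgeR FDR 0.0346), where 1.18% of all genes were called lower. Without library 43 there were 19, with 8 higher and 11 lower in libraries 72 to 76, against 7.34% and 7.98% of all genes. Across all mice, 2 of the 104 did not overlap between the genotypes, against 2.04% of all genes tested. These were named after their values were seen: Cdk5, a kinase that phosphorylates tau, at -0.23 (SE 0.062, edgeR FDR 0.254), and Dyrk2 at 0.74 (SE 0.35, FDR 0.346), which became 0.37 without library 43 (SE 0.096, FDR 0.0978). The same 2 did not overlap without that library, against 2.86% of all genes.

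Marker genes of several cell types moved in libraries 72 to 76 as well. Of 5 microglia markers, led by Csf1r, 4 fell against WT, where 12.7% of all genes tested were called lower, and their summed level was 84.5 CPM in libraries 72 to 76 and 111 CPM in WT. Of 5 astrocyte markers, led by Slc1a2, 3 fell, with Gfap at -1.08 (edgeR FDR 0.0213), and their sum was 4995 against 6704 CPM. Of 6 neuron markers, Syt1 rose by 0.47 and Snap25 fell by 0.18 on the log2 scale, and the sum was 3068 against 3210 CPM. No oligodendrocyte or motor neuron marker of the 6 each passed. No marker of these 5 lists was at 0 in any library. The part of these shifts in the fall of Mapt, Stmn3 and Dpysl2 was not tested.

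**Figure D5:**
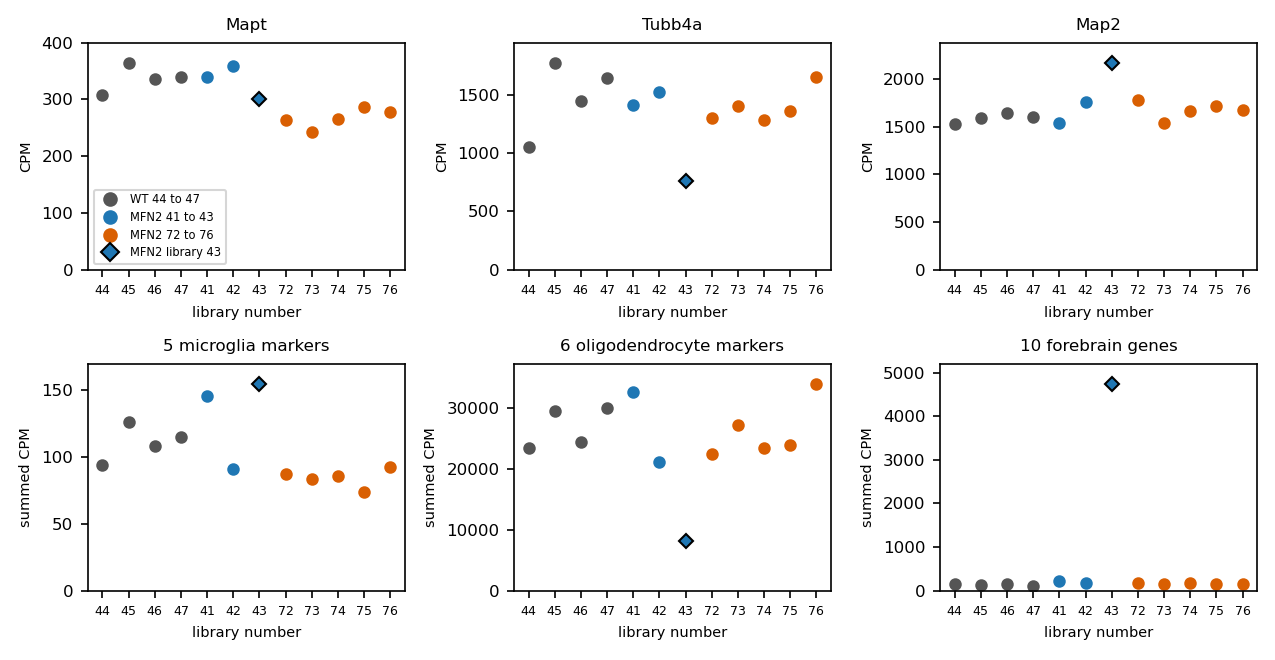
Mapt, Tubb4a and Map2 in CPM (top) and the summed CPM of microglia, oligodendrocyte and forebrain markers (bottom) in each library, on axes from 0, with WT libraries 44 to 47 first, then MFN2 libraries 41 to 43 and 72 to 76. Library 43 (diamond) holds 4736 CPM of forebrain genes and the lowest Tubb4a, and libraries 72 to 76 hold the 5 lowest values of Mapt.

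Genes whose log2 CPM followed each of the 10 most closely were found among 10288 genes over the 11 libraries without library 43, as a description only, since all share the difference between the number runs. Mapt was followed by Rcn2 (r = 0.989, and 0.808 over all 12 libraries) and Chpf (r = 0.982 and 0.929). Dpysl2 was followed by Adra1b (0.966 and 0.965) and Wbp2 (0.961 and 0.932), and Stmn3 by Snph (0.967 and -0.012) and Sod1 (0.957 and 0.939). Likeness thus held over all 12 libraries for some genes and was lost for others, such as Snph. For Map1a the closest were Kif1a (0.948 and 0.693) and Armc5 (0.948 and 0.878), for Map1b Epb41l3 (0.916 and 0.881) and Slc7a14 (0.908 and 0.960), and for Map2 Gm340 (0.937 and -0.043) and Plxna4 (0.937 and 0.981). For Tubb3 they were Gramd1b (0.944 and -0.503) and Psmc2 (0.942 and 0.951), and for Tubb4a Foxn3 (0.938 and 0.951) and Stk39 (0.928 and 0.959). For Tuba1a they were Prpsap1 (0.933 and 0.365) and Sqle (0.929 and 0.425), and for Tuba4a Slc35b4 (0.894 and 0.796) and Cib2 (0.873 and 0.332). Among the 10 genes themselves, 38 of 45 pairs had an r above 0 without library 43, with a median r of 0.38, and 34 of 45 over all 12 libraries, with a median r of 0.29.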

How the data were processed

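Poly(A) RNA of the cord was sequenced as paired reads of 75 bases. STAR alignments to GRCm38 of the trimmed reads were summarised by the authors as whole-number counts for each Ensembl gene, deposited raw. Neither the tool that counted them nor its use of strand is given in the sources used here, and the labels and the study's methods name different library kits. The 49548 genes of the tables included 0 of the mitochondrial chromosome, and 49289 were found in GENCODE M21. Each library is a separate sample of its group; litters are not named.

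Genes with a CPM above 1 in at least 3 libraries of a comparison were scaled by TMM and tested in R 4.3.3 with edgeR 4.0.16 (quasi-likelihood test, legacy form, robust option), with Benjamini-Hochberg adjustment over all genes tested and an FDR threshold of 0.05. Each comparison had its own fit of its own libraries. The F statistic gave the standard errors. A prior count of 2 was added for log2 CPM. Shares were compared by exact permutation tests. The alternatives were no filter or a stricter one, other scalings, no robust option, DESeq2 1.42.0, the number run as a covariate, other exon lengths and each library left out in turn. Removing library 43 from the lists, from the fit with the covariate and from the first run's shares was chosen after seeing the data. The 10 genes, the gene lists and the tests were chosen with earlier results of these data known. Named were the 10 genes, all alpha and beta tubulins, in each comparison the 5 largest rises and falls past the threshold among the other microtubule genes, the most abundant gene of each marker list, and the 2 genes closest to each of the 10; other genes were named after their values were seen. The marker lists of oligodendrocyte precursors, endothelium, ependyma, muscle and blood are given in the closing section.

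On simulated counts at a dispersion of 0.02, the test of MFN2 against WT recovered 59 of 109 genes changed by 0.5 on the log2 scale and 91 of 91 changed by 1, with 8 false calls among 15755 genes. In libraries 72 to 76 against WT it recovered 48 of 112 and 88 of 88, with 4 false calls among 15608 genes. Changes under 0.5, such as that of Mapt, were not simulated. Depth was 19359454 to 26738930 counts. Protein sequences were not used here. Some marker genes and coding ends are not reported here one by one.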

Additional observations from a re-analysis of the deposited data

Results flagged for a closer look

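Of 30 groups of 4 or 8 libraries tested for a single library far from the rest, 3 passed Dixon's critical value, where chance gives about 1.5. All 3 were library 43. Its Map2 level of 2171 CPM was the highest of the 8 MFN2 mice, with a gap to the next of 0.610 of the group's range. Its Tubb4a level of 759 CPM was the lowest, with a gap of 0.584, and its Tubb4a share of beta tubulin, 34.4%, was the lowest, with a gap of 0.684. The critical value for 8 libraries is 0.526. The same library held the high forebrain and low caudal Hox, motor neuron and oligodendrocyte markers described above.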

How the results depend on the processing

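No alternative called any of the 10 genes in MFN2 against WT or in libraries 41 to 43 against WT, also when each library was left out in turn. The number of genes called moved more. DESeq2 called 200 genes in MFN2 against WT, 5 in libraries 41 to 43 against WT and 1795 between the MFN2 runs, and without a filter 0 genes were called in libraries 41 to 43 against WT. Leaving out 1 library gave 0 to 19 calls in MFN2 against WT (7 without library 41 and 19 without library 43), 0 to 2 in libraries 41 to 43 against WT, 2350 (without WT library 45) to 4517 in libraries 72 to 76 against WT, and 31 (without library 74) to 2375 (without library 43) between the MFN2 runs. The cause was not tested.

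Mapt kept its call in libraries 72 to 76 against WT under all 15 alternatives, from -0.38 without WT library 44 to -0.26. Between the MFN2 runs Mapt also passed with DESeq2 (-0.33, FDR 0.0069). Stmn3 lost its call under 8 and Dpysl2 under 7 of 15. Map2 passed in libraries 72 to 76 against WT with scaling by totals alone (0.14, edgeR FDR 0.0459).

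The sign of some changes, none of them called, also turned. With the number run as a covariate and no library 43, Mapt (0.051) and Map1a (0.0027) turned in MFN2 against WT. The MFN2 effect of that fit rests on libraries 41 and 42 against WT. With scaling by totals alone, Map1b (0.042) and Tuba1a (0.012) turned in MFN2 against WT, Mapt (0.0033) in libraries 41 to 43 against WT, Tuba1a (0.046) and Tuba4a (0.017) in libraries 72 to 76 against WT, and Map1a (0.050) and Tuba4a (0.046) between the MFN2 runs, where Map1a also turned with a stricter filter (0.0066). With 1 library left out, values in MFN2 against WT ran from -0.078 to 0.040 for Map1b, from -0.083 to 0.017 for Tuba4a. In libraries 41 to 43 against WT they ran from -0.063 to 0.061 for Mapt, from -0.21 to 0.013 for Map1a, from -0.11 to 0.044 for Tuba1a, from -0.068 to 0.034 for Tuba4a and from -0.060 to 0.00092 for Dpysl2. In libraries 72 to 76 against WT they ran from -0.21 to 0.017 for Tubb4a, from -0.10 to 0.012 for Tuba1a and from -0.087 to 0.011 for Tuba4a. Between the MFN2 runs they ran from -0.15 to 0.064 for Map1a, from -0.24 to 0.014 for Map2, from -0.077 to 0.35 for Tubb4a, from -0.082 to 0.086 for Tuba1a and from -0.053 to 0.016 for Tuba4a. The genotype difference in share ran from -0.34 to 0.76 points for Tuba4a and from -3.66 to 0.18 points for Tubb4a. For Tuba1a it ran from 0.022 to 1.67 points and for Tubb3 from -1.45 to -0.49 points, without turning. With libraries 41 to 43 alone against WT the Tubb4a share differed by -4.00 points, and with libraries 41 and 42 alone by 1.89 points, where Tuba1a turned as well (-1.27 points). No other setting turned a share.

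No paired analysis was run because the labels name no litters or pairs of mice. The counts limit low genes only, since each of the 10 held at least 4829 counts in every library, and with 4 WT mice, all of 1 number run, changes of the size seen here rest on the spread of few animals.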

Other observations

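Other cell type markers also varied between libraries, which the comparisons of tubulin and microtubule genes did not use. Foxj1, a regulator of motile cilia in ependymal cells, fell by 1.07 on the log2 scale in libraries 72 to 76 against WT (edgeR FDR 0.000185), as 1 of 3 ependymal markers, where 12.7% of all genes tested were called lower and 11.1% higher, and their summed level was 16.1 CPM against 29.0 CPM in WT. Cldn5, an endothelial tight junction gene, fell by 0.82 (edgeR FDR 0.00685), as 1 of 4 endothelial markers, and their sum, led by Flt1, was 136 against 120 CPM. Of 3 blood genes, led by Hbb-bs, Alas2 rose by 1.18 (edgeR FDR 0.0479). None of 4 oligodendrocyte precursor markers, led by Bcas1, and none of 4 muscle genes, led by Myh4, passed.

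Muscle genes summed to 220 CPM in WT library 47 and 233 CPM in MFN2 library 73, and to at most 61.4 CPM elsewhere, with Ckm at 0 in at least 1 library. Among the 10 forebrain genes, Emx1 was at 0 in some libraries, and of the 8 tested in libraries 72 to 76 against WT, 1 passed, Nrgn, which rose by 0.57 (edgeR FDR 0.00548, with 11.1% of all genes called higher), while 2 had values below 0, down to -1.12. None of the 9 caudal Hox genes, led by Hoxb8, passed in that comparison.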
